A study of Mus musculus with 6 samples.

Results

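Integrins are the transmembrane receptors through which stromal cells hold and sense the extracellular matrix, and 10 integrin genes of stromal cells are described here. They were chosen by name: *Itga1*, *Itga5*, *Itga7*, *Itga8*, *Itga9*, *Itga11*, *Itgav*, *Itgb1*, *Itgb3* and *Itgb5*, taken by symbol from the 20327 genes with tag counts. The cells were colonic cells of *Il11-Egfp* mice on the C57BL/6 background, male and 9 to 15 weeks old, in which a bacterial artificial chromosome carries *Egfp* with a polyA signal in the second exon of *Il11*. All mice had received 1.5% dextran sulfate sodium (DSS), which injures the colonic epithelium, as 5 days of treated drinking water and regular water thereafter. On day 7, DAPI- Ter119-CD45-CD31-EpCAM- cells were sorted into EGFP- cells, called IL-11- fibroblasts, and EGFP+ cells, called IL-11+ fibroblasts. Each group had 3 libraries, made by 5′Tag-seq, in which tags are read from the 5′ side of polyA RNA. The study used 3 mice, and the labels do not say whether same-numbered libraries share a mouse.

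The libraries were of similar depth, with totals of 1057170, 1078179 and 1169817 tags for IL-11- fibroblasts and of 1046538, 1022851 and 1049048 tags for IL-11+ fibroblasts, in the order of replicate numbers used throughout. At this depth 3 tags, taken as the floor of a measurement, correspond to between 2.46 and 3.18 normalized CPM (tags scaled to a common library size adjusted by TMM). Intervals and floors from tag counts cover counting error only. *Il11* served as a check of the labels and held 28, 51 and 89 tags in the IL-11- libraries and 1357, 732 and 2658 tags in the IL-11+ libraries. Tags from the first exon of the transgene and from the endogenous *Il11* gene cannot be told apart.

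An integrin is a pair of one α and one β subunit, and the α subunit largely sets which ligand is bound. The β1 subunit pairs with most α subunits of this group: α1β1 and α11β1 bind collagens, α7β1 binds laminins, and α5β1, α8β1 and αv integrins bind the RGD motif of proteins such as fibronectin, nephronectin and vitronectin. The αv subunit also pairs with β3 and β5, and αv integrins are known for releasing TGF-β from its latent form. Ligand-bound integrins link to actin through talin, kindlin and other adaptors, and fibroblasts use them to adhere, to migrate and to assemble matrix.

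To ask how the integrin repertoire of IL-11+ fibroblasts differs from that of IL-11- fibroblasts, the tag counts of both groups were compared over the 9334 genes that reached 10 tags in 3 or more of 6 libraries. Genes count as called at an adjusted p (edgeR quasi-likelihood test, Benjamini-Hochberg) under 0.05 with a fold change over 2. *Itgav* was called higher in IL-11+ fibroblasts, and *Itga7*, *Itga8* and *Itga11* were called lower. *Itga1* and *Itga5* were also above in IL-11+ fibroblasts at an adjusted p under 0.05, but by less than 2-fold. *Itgb1*, *Itgb3*, *Itgb5* and *Itga9* did not pass the test. Thus 1 of 10 genes was called higher, beside 3.44% of all tested genes, and 3 of 10 were called lower, beside 6.37%. By the adjusted p alone 3 were higher and 3 lower, beside 6.84% and 8.7% of all tested genes. The 3 called lower reached 10 tags only in IL-11- libraries, so they could pass the filter only through the group in which they are high. Over the 10 genes the log2 fold change had a median of −0.03, beside −0.01 for all tested genes.

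**Figure D1:**
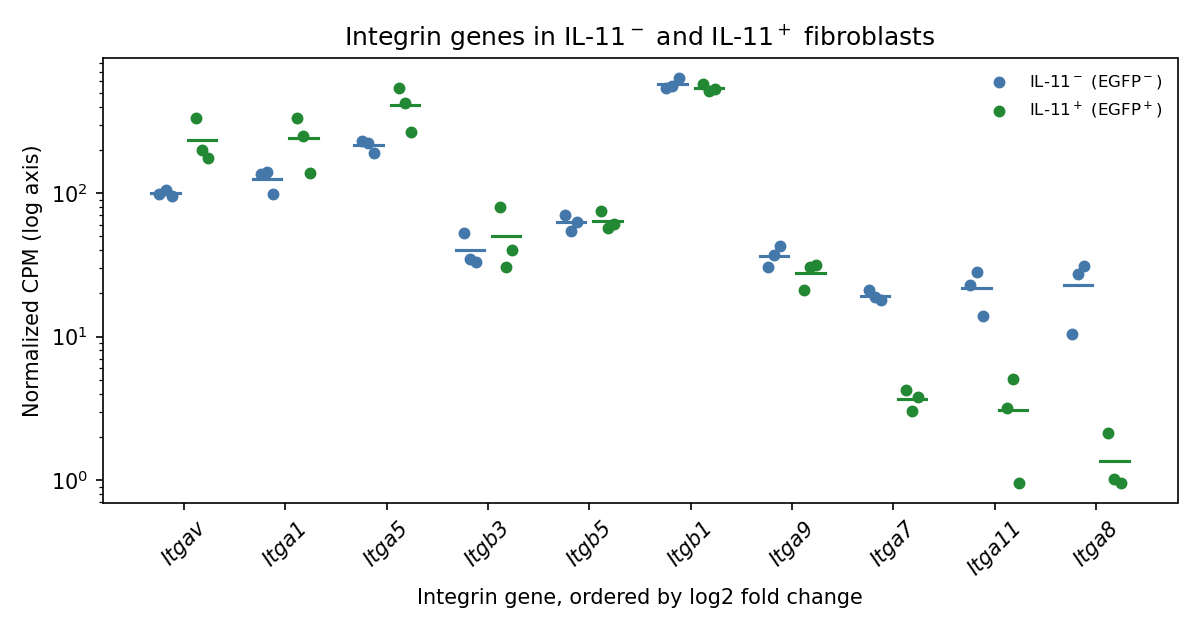
Normalized CPM (log axis) of the 10 integrin genes in each of 3 IL-11- and 3 IL-11+ libraries. Points are libraries in the order of their replicate numbers, and horizontal lines are group means. *Itgav* lies between 96.1 and 106 in IL-11- libraries and between 174 and 334 in IL-11+ libraries, whereas *Itga8* is at most 2.12 in IL-11+ libraries.

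*Itgav* encodes the αv subunit. It had 104, 112 and 117 tags in IL-11- libraries and 315, 196 and 183 tags in IL-11+ libraries. Every IL-11+ library lay above every IL-11- library, and IL-11+ replicate 1 stood highest. As normalized CPM the means were 100 ± 4.80 and 236 ± 85.8 (SD, n = 3 libraries each), and the log2 fold change was 1.23 (SE 0.21, 95% confidence interval 0.78 to 1.68, adjusted p = 0.000472). Without IL-11+ replicate 1 the log2 fold change was 0.91, under the fold threshold, and the adjusted p over 19 alternative settings ranged from 2.1e-09 to 0.00558.

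*Itga5*, which encodes the α subunit of the fibronectin receptor α5β1, showed a similar order of the libraries. Its tags were 242, 236 and 232 in IL-11- libraries and 506, 421 and 281 in IL-11+ libraries. The groups did not overlap, and among the IL-11+ libraries replicate 1 was again highest and replicate 3 lowest. *Itgav* and *Itga5* were 2 of 10 genes whose IL-11+ libraries all lay above the IL-11- libraries in normalized CPM, beside 14.5% of all tested genes. For *Itga5* the means were 215 ± 21.4 and 411 ± 135 normalized CPM (SD, n = 3), a 1.91-fold difference (log2 fold change 0.94, SE 0.21, adjusted p = 0.00436). It crossed the fold threshold without IL-11+ replicate 3 (log2 fold change 1.17).

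The collagen-binding subunits α1 and α11 differed between groups in opposite directions. *Itga1*, whose product pairs with β1 to bind mainly collagen IV and other collagens, had 143, 149 and 120 tags in IL-11- libraries and 316, 248 and 145 tags in IL-11+ libraries. IL-11+ replicates 1 and 2 were above all IL-11- libraries, whereas replicate 3, at 138 normalized CPM, lay within their range of 98.5 to 140. Its same-numbered IL-11- library was the lowest of that group, and in each of the 3 same-numbered pairs the IL-11+ library was higher. The means were 125 ± 23.1 and 242 ± 98.7 normalized CPM (SD, n = 3), a 1.93-fold difference (log2 fold change 0.95, SE 0.25, adjusted p = 0.0119). *Itga1* passed both thresholds without IL-11- replicate 2 (log2 fold change 1.03) or IL-11+ replicate 3 (1.23), but it missed the adjusted p without IL-11- replicate 3 (0.78) or IL-11+ replicate 1 (0.65). Its adjusted p over 19 alternative settings ranged from 6.0e-06 to 0.0909, and in the fit that pairs same-numbered libraries it was 2.0e-05 (log2 fold change 0.89, under the fold threshold).

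*Itga11*, which encodes the α subunit of a fibrillar collagen receptor of fibroblasts, had 24, 30 and 17 tags in IL-11- libraries but 3, 5 and 1 tags in IL-11+ libraries. The groups were clearly apart despite the low counts. Summed over libraries, its level was 7.06-fold higher in IL-11- fibroblasts (95% counting interval 3.52 to 16.1), and the fitted log2 fold change was −2.78 (SE 0.50, adjusted p = 0.000663). There were 5.96, 4.97 and 7.06 *Itga1* tags per *Itga11* tag in IL-11- libraries and 105, 49.6 and 145 in IL-11+ libraries, where 2 of 3 denominators are at or under the floor of 3 tags. The pair was chosen after its values were seen, and the ratio is given as a description.

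*Itga8* showed the largest fall of the 10 genes. Its product pairs with β1 and binds nephronectin and other RGD proteins, and it is known from smooth muscle and other contractile stromal cells. Its tags were 11, 29 and 38 in IL-11- libraries and 2, 1 and 1 in IL-11+ libraries. All IL-11+ libraries were under the floor of 3 tags, and IL-11- replicate 1 was the lowest of its group. The summed level was 17.5-fold higher in IL-11- fibroblasts (95% counting interval 6.55 to 65.6), and the fitted log2 fold change was −3.99 (SE 0.60, adjusted p = 0.00011).

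*Itga7* encodes the α subunit of a laminin receptor best known from muscle. It had 22, 20 and 22 tags in IL-11- libraries and 4, 3 and 4 tags in IL-11+ libraries, with little spread in either group. The summed level was 5.21-fold higher in IL-11- fibroblasts (95% counting interval 2.72 to 10.9), and the fitted log2 fold change was −2.35 (SE 0.42, adjusted p = 0.000607). *Itga7*, *Itga8* and *Itga11* were the 3 of 10 genes whose IL-11+ libraries all lay below the IL-11- libraries, beside 16.7% of all tested genes. In these bulk libraries, fewer cells of a type and less RNA per cell cannot be told apart. The summed level of 10 smooth muscle marker genes was 14.1-fold higher in IL-11- than in IL-11+ libraries, and its part in the fall of these genes was not tested.

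No difference in the β subunits was detected. *Itgb1*, the common partner, had 568, 595 and 769 tags in IL-11- libraries and 543, 508 and 560 tags in IL-11+ libraries. Its means were 578 ± 47.1 and 542 ± 30.6 normalized CPM (SD, n = 3), and the 95% confidence interval of its log2 fold change ran from −0.43 to 0.24. *Itgb5* had 56 to 77 tags in the 6 libraries, with an interval of −0.38 to 0.45, and its direction changed with the scaling and without single libraries. *Itgb3* had 30 to 76 tags and the widest interval of the β subunits, −0.32 to 0.97. Its highest library was IL-11+ replicate 1, without which its log2 fold change was −0.17. Among the α subunits, *Itga9*, whose product binds tenascin C and VCAM-1, had 32, 39 and 52 tags in IL-11- libraries and 20, 30 and 33 tags in IL-11+ libraries, with an interval of −0.95 to 0.14. In each same-numbered pair its IL-11+ library was lower, but *Itga9* did not pass the fit that pairs these libraries either (log2 fold change −0.41, adjusted p = 0.298). In the fit without pairs the adjusted p was 0.77 for *Itgb1*, 0.945 for *Itgb5*, 0.551 for *Itgb3* and 0.354 for *Itga9*.

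Because *Itgb1* is the shared partner, the tags of each gene were also set against the *Itgb1* tags of the same library. There were 18.3, 18.8 and 15.2 *Itgav* tags per 100 *Itgb1* tags in IL-11- libraries and 58.0, 38.6 and 32.7 in IL-11+ libraries. For *Itga1* the values were 25.2, 25.0 and 15.6 in IL-11- libraries and 58.2, 48.8 and 25.9 in IL-11+ libraries, so that on this measure IL-11+ replicate 3 stood just above the highest IL-11- library. *Itga5* ranged from 30.2 to 42.6 and from 50.2 to 93.2, respectively. These 3 of 9 genes lay above in IL-11+ libraries without overlap, beside 18.4% of 9333 tested genes set against *Itgb1* in this way. *Itga7*, *Itga8* and *Itga11* lay below without overlap, beside 12.4%, and *Itga9*, *Itgb3* and *Itgb5* overlapped. *Itga7*, *Itga8* and *Itga11* could pass the filter only through IL-11- libraries. For each of the 6 without overlap the exact two-sided permutation p was 0.1, the smallest that 3 against 3 libraries allow. Absence of overlap alone fixes this value, so it adds no support. For *Itga9*, *Itgb3* and *Itgb5* the exact permutation p was 0.3, 0.6 and 0.5. The permutation exchanges labels over all libraries and does not keep same-numbered libraries as pairs. Exchanges within pairs alone could not give a p as small as 0.1. The ratio of *Itgav* to *Itgb5* tags was 1.41, 1.93 and 1.52 in IL-11- libraries and 4.44, 3.50 and 2.86 in IL-11+ libraries. The ratio to *Itgb3*, the other listed αv partner beside β1 and β5, was 1.89, 3.03 and 2.93 in IL-11- libraries and 4.14, 6.53 and 4.36 in IL-11+ libraries. Neither ratio overlapped between groups, beside 9.56% of tested genes that lay above without overlap when set against *Itgb5* and 2.42% against *Itgb3*.

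Levels between genes were compared as normalized CPM per kilobase of the longest protein-coding transcript. Tags were read from the 5′ side, and whether their number scales with length was not tested. On this scale *Itgb1* was the most abundant, at 152 ± 12.3 (SD, n = 3) in IL-11- fibroblasts, beside 142 ± 8.02 in IL-11+ fibroblasts. *Itga5* followed in both groups, at 49.0 ± 4.87 and 93.7 ± 30.8. In IL-11- fibroblasts *Itgb5* (19.1 ± 2.44), *Itgav* (14.2 ± 0.68) and *Itga1* (11.4 ± 2.11) came next, and the libraries of neighbours in this order did not overlap. Without the division by length these 3 stood in the reverse order, at 125 normalized CPM for *Itga1*, 100 for *Itgav* and 62.8 for *Itgb5*. In IL-11+ fibroblasts the order of these 3 was *Itgav* (33.4 ± 12.2), *Itga1* (12.6 to 30.5 over libraries) and *Itgb5* (19.6 ± 2.94), but *Itga1* overlapped with both others. Without the division by length *Itga1* (242 normalized CPM) stood just above *Itgav* (236) and overlapped with it, whereas *Itgb5* lay below all libraries of both, at 56.9 to 75.3. *Itgb3*, *Itga9*, *Itga7*, *Itga11* and *Itga8* were the lowest in both groups, in that order, and in IL-11- fibroblasts each overlapped with the next, from 6.93 ± 1.87 for *Itgb3* to 3.96 ± 1.89 for *Itga8*. *Itgb3* also overlapped with *Itga1*, at 5.68 to 9.08 beside 8.98 to 12.8 in IL-11- fibroblasts and 5.27 to 13.9 beside 12.6 to 30.5 in IL-11+ fibroblasts. Without the division by length *Itga8* (23.0 normalized CPM), *Itga11* (21.7) and *Itga7* (19.3) stood in the reverse order in IL-11- fibroblasts and overlapped. In IL-11+ fibroblasts *Itga7*, *Itga11* and *Itga8* were at 0.92 ± 0.15, 0.62 ± 0.42 and 0.23 ± 0.11 and overlapped with their neighbours among them.

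Of 17 other integrin subunits, 14 had counts and 2 passed the filter. *Itga4*, which pairs with β1 or β7 to bind VCAM-1 and fibronectin, had 44, 55 and 57 tags in IL-11- libraries and 10, 15 and 9 tags in IL-11+ libraries. It was called lower (log2 fold change −2.02, SE 0.29, adjusted p = 6.56e-05), and its groups did not overlap. *Itga2*, the α subunit of another collagen receptor, had 8, 10 and 12 tags in IL-11- libraries and 23, 12 and 22 tags in IL-11+ libraries. It did not pass the test (log2 fold change 1.08, SE 0.38, adjusted p = 0.0626), but was called higher with the replicate number as a block (log2 fold change 1.06, adjusted p = 0.048, range over 19 alternatives 0.0299 to 0.214), with iterative TMM and the exact test (1.07) and without IL-11+ replicate 2 (1.33). The other 12 with counts held at most 16 tags in a library, and those of leukocytes and platelets, such as *Itgam*, *Itgb2* and *Itga2b*, had at most 3, 1 and 11 tags.

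Genes for ligands were counted from lists of collagens, of RGD and other matrix ligands and of laminin chains. Beside each list and marker count stand the shares of all tested genes, 3.44% called higher and 6.37% called lower, or 6.84% and 8.7% by the adjusted p alone. Of 10 tested collagen genes, 5 were called higher and none lower, and the median log2 fold change was 0.73. These were the basement membrane collagens *Col4a1* (2.27-fold) and *Col4a2* (log2 fold change 1.16, SE 0.20), and the fibrillar collagens *Col5a1* (1.07, SE 0.17), *Col5a2* (1.06, SE 0.17) and *Col3a1* (1.04, SE 0.20). *Col3a1*, the fifth by size, was named after its values were seen. All 5 lay near the fold threshold and fell under it without a single library: *Col4a1* (0.96), *Col4a2* (0.98) and *Col5a2* (0.97) without IL-11+ replicate 1, *Col5a1* without IL-11- replicate 1 (0.96) or IL-11+ replicate 2 (0.94), and *Col3a1* without IL-11- replicate 1 (0.83). Under library size only, *Col3a1* (0.96), *Col5a1* (0.98) and *Col5a2* (0.97) were under it too.

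Among 18 tested RGD and other matrix ligands, 5 were called higher and 3 lower, with a median log2 fold change of −0.42. By the adjusted p alone 6 were higher and 9 lower (all tested genes 6.84% and 8.7%), the reverse of the balance among called genes. *Spp1*, *Npnt* and *Vtn* reached 10 tags only in the group in which they are high, and could pass the filter only through it. *Spp1*, which encodes osteopontin, a ligand of αv and α9 integrins, had 1, 0 and 0 tags in IL-11- libraries and 203, 27 and 29 tags in IL-11+ libraries. Its summed level was 289-fold higher in IL-11+ fibroblasts with a 95% counting interval of 51.5 to 11475 (adjusted p = 9.56e-05), and 203 of its 259 tags were those of replicate 1. The fitted log2 fold change, which depends on the prior count, was 7.73, and 9.54 without IL-11- replicate 1. Without any IL-11+ library *Spp1* no longer reached 10 tags in 3 libraries and was not tested. With the genes tested with 6 libraries kept, an alternative added after seeing the data, it was 6.06 without IL-11+ replicate 1. *Tnc*, which encodes tenascin C, had 683, 587 and 647 tags in IL-11- libraries and 4064, 2051 and 1865 tags in IL-11+ libraries. Its groups lay far apart, at a log2 fold change of 2.23 (SE 0.26) and an adjusted p of 8.32e-06. *Vcam1*, a ligand of α4 and α9 integrins, had a log2 fold change of 1.22 (SE 0.20), and *Tgfb1*, whose latent form carries an RGD motif, was 2.26-fold higher. *Edil3*, an αv ligand named after its values were seen, had a log2 fold change of 1.17 (SE 0.30). *Tgfb1* was not called without IL-11- replicate 2 (log2 fold change 1.06) or IL-11+ replicate 1 (0.84), nor *Edil3* without IL-11- replicate 1 (0.98), IL-11- replicate 2 (1.14) or IL-11+ replicate 3 (0.76).

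The 3 ligands called lower were those of nephronectin, vitronectin and TGF-β3. *Npnt*, which encodes the α8β1 ligand nephronectin, had 23, 11 and 22 tags in IL-11- libraries and 1, 1 and 2 tags in IL-11+ libraries. Its summed level was 12.5-fold higher in IL-11- fibroblasts (95% counting interval 4.63 to 47.6, adjusted p = 0.000245). *Vtn*, which encodes the αv ligand vitronectin, had 31, 24 and 52 tags in IL-11- libraries and 0, 2 and 7 tags in IL-11+ libraries. Its log2 fold change was −3.35 (SE 0.53, adjusted p = 0.00017), and −4.79 without IL-11+ replicate 3. *Tgfb3* had a log2 fold change of −1.35 (SE 0.23). *Fn1*, the gene of fibronectin and singled out after its values were seen, did not pass the test (log2 fold change 0.06, SE 0.17, adjusted p = 0.86).

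Laminin chain genes moved in both directions. Of 9 tested, 2 were called higher and 2 lower, and the median log2 fold change was 0.06. By the adjusted p alone 4 were higher and 2 lower (all tested genes 6.84% and 8.7%). *Lama1*, with 31, 28 and 16 tags in IL-11- libraries and 83, 89 and 71 tags in IL-11+ libraries, had a log2 fold change of 1.84 (SE 0.26). *Lamb1* was at the fold threshold (1.003, SE 0.17) and was not called without IL-11- replicate 3 (0.85), IL-11+ replicate 1 (0.99) or IL-11+ replicate 2 (0.96). Under library size only and iterative TMM it was not called either (0.92 and 0.99). *Lamc3* (−2.11, SE 0.46) and *Lamb2* (−1.39, SE 0.23) were lower, and *Lamc3* reached 10 tags only in IL-11- libraries.

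Of 32 tested genes for cytoplasmic adaptors and kinases, none was called higher, 3 were called lower and 29 were not called, with a median log2 fold change of −0.21. By the adjusted p alone 2 were higher and 5 lower, beside 6.84% and 8.7% of all tested genes. The talin genes *Tln1* and *Tln2* and the kinase gene *Ptk2*, singled out after their values were seen, had log2 fold changes of −0.05 (SE 0.16), 0.26 (SE 0.30) and −0.20 (SE 0.27). *Lims2*, which encodes the adaptor PINCH2, had 22, 19 and 20 tags in IL-11- libraries and 1, 2 and 2 tags in IL-11+ libraries, and its summed level was 10.9-fold higher in IL-11- fibroblasts (95% counting interval 4.43 to 34.8, adjusted p = 0.000107), but it reached 10 tags only in IL-11- libraries. *Flna*, the actin crosslinker filamin A that binds β tails, had a log2 fold change of −1.04 (SE 0.17), and fell short of the fold threshold without IL-11- replicate 3 (−0.95) or IL-11+ replicate 3 (−0.98) and without a filter on low counts (−0.9996). *Kank1* had a log2 fold change of −1.16 (SE 0.33) and was not called with DESeq2 (−1.15) or without IL-11- replicate 2 (−0.98), IL-11+ replicate 1 (−1.20) or IL-11+ replicate 3 (−1.01).

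Markers of several of the cell types that the gate could hold were measured in the same libraries. Fibroblast markers were high in both groups, with summed normalized CPM of 22828, 22909 and 25273 in IL-11- libraries and 43103, 34860 and 30929 in IL-11+ libraries, of which *Dcn* was the most abundant, so the label of both groups as stromal held. Of these 10 genes, 2 were called higher (all tested genes 3.44%), *Col3a1*, which the collagen list also holds, and *Pdpn*, and by the adjusted p alone 4 were higher and *Lum* was lower. *Pdpn* was under the fold threshold with library size only (0.97) and without IL-11- replicate 1 (0.94) or IL-11+ replicate 1 (0.97). Smooth muscle markers differed between groups in the same direction as *Itga7*, *Itga8* and *Itga11*: 9 of 10 were called lower in IL-11+ fibroblasts (all tested genes 6.37%), all but *Smtn*. *Cnn1* among them, *Notch3* among the pericyte markers and *Kit* among those of interstitial cells of Cajal reached 10 tags only in IL-11- libraries. The fitted log2 fold changes of these 3, named after their values were seen, moved from −5.35, −3.94 and −4.34 to −7.09, −4.73 and −8.71 without IL-11+ replicate 3. None of the smooth muscle markers was at 0 in a whole group. By mean normalized CPM *Myh11* was the most abundant in IL-11- libraries (931) and *Tagln* in IL-11+ libraries (51.4, beside 39.2 for *Myh11*). The summed level of the smooth muscle markers was 2769, 3413 and 4286 in IL-11- libraries and 141, 207 and 394 in IL-11+ libraries. Among the IL-11- libraries, replicate 3 was the highest in this sum and in *Itga8*, but the lowest in normalized CPM of *Itga7* and *Itga11*. The order of *Itga7* (21.0, 18.8 and 18.1 from 22, 20 and 22 tags) was that of the pericyte sums below. The orders of *Itga8* and *Itga11* were not, and none of these orders was tested. Of 7 tested pericyte markers 4 were called lower, and the summed level was 2686, 2303 and 2114 in IL-11- libraries and 1076, 903 and 804 in IL-11+ libraries. *Rgs5* led in IL-11- libraries (mean 1648), whereas *Abcc9* led in IL-11+ libraries (mean 417, beside 190 for *Rgs5*). Without *Rgs5* the sums were 823, 701 and 636 in IL-11- libraries and 879, 726 and 607 in IL-11+ libraries and overlapped, and *Kcnj8* (0.71) and *Abcc9* (0.66) were higher by the adjusted p but under the fold threshold. All 3 markers of interstitial cells of Cajal were called lower, and their summed level went from 271, 168 and 258 to 21.2, 20.3 and 50.5. *Ano1* led in IL-11- libraries (mean 131) and *Etv1* in IL-11+ libraries (mean 23.3, beside 5.12 for *Ano1*). The log2 fold change of *Ano1*, −4.59, was −7.69 without IL-11+ replicate 3. *Etv1* was under the fold threshold without IL-11- replicate 1 (−0.93).

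Endothelial markers summed to 46.8, 33.0 and 49.3 in IL-11- libraries and to 22.3, 9.14 and 9.54 in IL-11+ libraries, led by *Tek*, the only one tested, which was called lower (log2 fold change −1.59, SE 0.39). It was not called without IL-11+ replicate 2 (−1.39) and moved to −2.29 without IL-11+ replicate 1, whereas *Pecam1* had a single tag in the 6 libraries. Tags of haematopoietic markers (led by *Laptm5*) summed to 5 to 28 per library and of platelet markers (led by *Itga2b*) to 5 to 11. Those of epithelial markers summed to 1 to 23 and of mesothelial markers (led by *Wt1*) to 0 to 19. By mean normalized CPM the epithelial markers were led by *Krt19* in IL-11- libraries (2.50) and by *Vil1* in IL-11+ libraries (1.05). No gene of any of these lists passed the filter. In IL-11+ libraries *Cd3e*, *Krt19*, *Krt20*, *Msln*, *Upk3b*, *Lrrn4*, *Emcn* and *Lyve1* were at 0. The part of smooth muscle, pericyte and interstitial cell RNA in the lower *Itga7*, *Itga8*, *Itga11*, *Itga4* and adaptor counts was not tested. Fibroblast markers summed to a 1.53-fold higher level in IL-11+ than in IL-11- libraries. A larger share of fibroblasts and more RNA per cell cannot be told apart here. Their part in the higher *Itgav*, *Itga5* and *Itga1* counts was not tested.

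**Figure D2:**
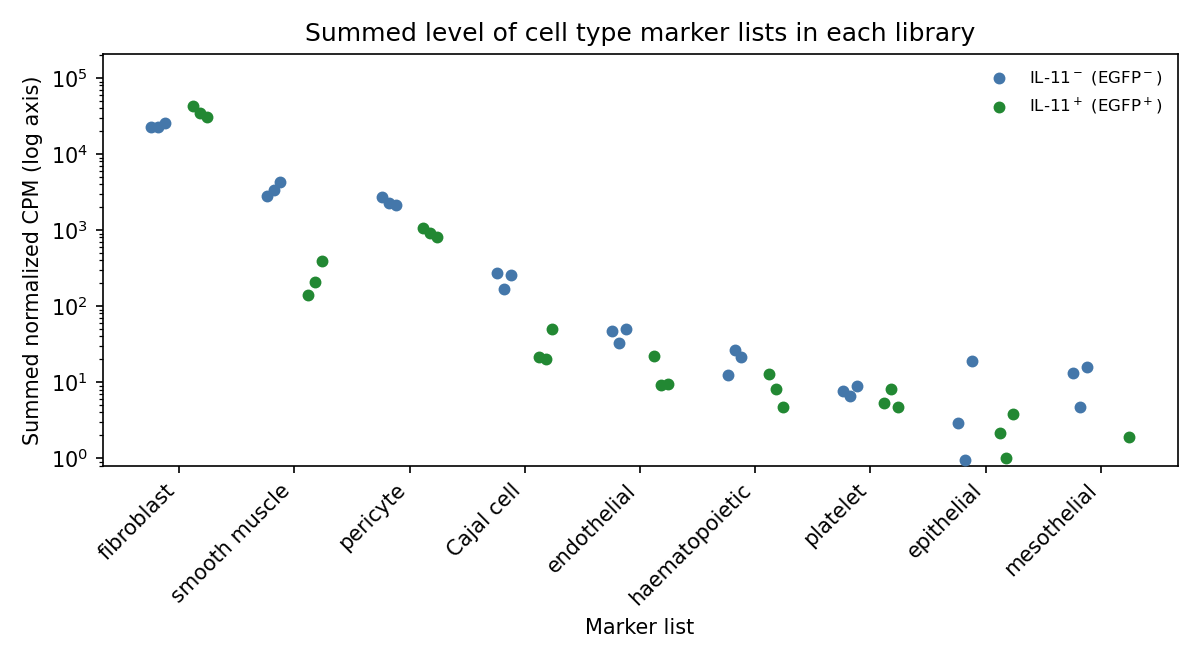
Summed normalized CPM (log axis) of 9 marker lists in each of 3 IL-11- and 3 IL-11+ libraries, with points as libraries in the order of their replicate numbers. Fibroblast markers lie at 22828 or more in each library, and smooth muscle markers fall from 2769 or more to 394 or less. IL-11+ replicates 1 and 2 had 0 mesothelial tags and have no point there.

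Profiles over the 6 libraries were compared for the called integrin genes with the largest fall, *Itga8*, and the largest rise, *Itgav*. Among 8983 tested genes averaging 10 tags or more, those most like *Itga8* were *Mrvi1* (log2 fold change −3.42), *Ndufa4l2* (−3.85) and *Slc2a4* (−3.56). Their root mean square distances to *Itga8*, after each log2 profile was centred on its own mean, were 0.37, 0.41 and 0.48. *Itga8* had 2, 1 and 1 tags in IL-11+ libraries, under the floor. Each distance includes the group difference by which the gene was chosen. For *Itgav* the 3 nearest profiles were those of *Gapdh* (0.11), *Med24* (0.11) and *Gapdh-ps15* (0.13), of which *Gapdh-ps15* is a pseudogene of *Gapdh*.

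The 10 genes are spread over the GRCm38 assembly. *Itgav* spans chr2:83724397-83806916 on the plus strand and *Itga8* chr2:12106632-12301922 on the minus strand. *Itga5* is at chr15:103344286-103366763 (minus), *Itga7* at chr10:128933818-128958282 (plus) and *Itga11* at chr9:62677826-62783982 (plus), on the same chromosome as *Itga9*. *Itga1*, at chr13:114953096-115101964 (minus), is separated by 20995 bases from *Itga2*, which is transcribed from the same strand. Of the 50-base windows in the first 300 bases of *Itga1* transcripts, 82.9% also occur in the annotated overlapping gene *Gm49395*, and tags from these shared windows cannot be told apart. The other 9 genes had no such window in another gene.

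The promoters of the integrin genes were searched on both strands for motifs of serum response factor, AP-1, TEAD and Sp factors. RefSeq promoter sequences (GRCm38.p6, 250 bases before to 50 bases after the start) matched 8 of the 10 genes, all but *Itga7* and *Itgb3*. The CArG box of serum response factor, in 1.63% of all 32851 promoters, was in none of the 8 windows. The AP-1 motif TGANTCA (7.81% of promoters) was found at a single place, in *Itga9*, whose window belongs to a start within the annotated gene, and the TEAD motif GGAATG (14.7%) at another, in *Itgb1*. The GC box GGGCGG (35.7%) occurred in *Itga5*, *Itgav*, *Itgb1* and *Itgb5*. The stretches from position −150 to −51 are shown for the subunits above or below in IL-11+ fibroblasts, in transcript orientation, with the single GC box, read on the opposite strand, in capitals. They are *Itgav* (chr2:83724247-83724346, plus strand), *Itga5* (chr15:103366842-103366941, minus), *Itga1* (chr13:115102015-115102114, minus), *Itga8* (chr2:12301995-12302094, minus) and *Itga11* (chr9:62677705-62677804, plus).
Itgav: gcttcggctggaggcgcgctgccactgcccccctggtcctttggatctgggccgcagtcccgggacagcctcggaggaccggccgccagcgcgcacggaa
Itga5: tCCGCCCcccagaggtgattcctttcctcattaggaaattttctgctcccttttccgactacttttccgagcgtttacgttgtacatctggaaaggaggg
Itga1: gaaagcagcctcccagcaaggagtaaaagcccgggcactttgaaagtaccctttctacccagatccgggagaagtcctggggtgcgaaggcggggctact
Itga8: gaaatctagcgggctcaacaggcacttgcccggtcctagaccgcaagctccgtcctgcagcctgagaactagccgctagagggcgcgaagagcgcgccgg
Itga11: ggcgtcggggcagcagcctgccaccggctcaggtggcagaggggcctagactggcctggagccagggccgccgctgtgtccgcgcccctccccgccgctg
A match of letters is a description and not a binding site, and the absence of one says only that these letters are not in the window.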

How the data were processed

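5′Tag-seq libraries from 2 groups of sorted colon cells (n = 3 each) were compared. The authors used Cutadapt 1.18 for trimming and Bowtie2 2.2.5 for mapping, in a single orientation against mm10 RNA of RefSeq, and deposited the tag counts per gene without normalization. The treatment of tags that match several genes and of molecular identifiers is not given in the sources used here.

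Counts were analyzed in R 4.3.3 with edgeR 4.0.16 (TMM, glmQLFit and glmQLFTest, Benjamini-Hochberg adjustment over all 9334 tested genes), for genes that reached 10 tags in 3 or more libraries. The printed methods exclude such genes, which was read as keeping them. Normalized CPM are CPM over TMM-scaled library sizes. Counting intervals are exact conditional 95% intervals of the ratio of summed tags. Pairs of libraries within a group differed beyond sampling noise, with a chi-square per degree of freedom of 2.56 to 6.11. Deviations from the group means were correlated for same-numbered libraries (r = 0.23, 0.18 and 0.26 for replicates 1, 2 and 3 over 5063 genes averaging 30 tags or more). For libraries of different numbers r ran from −0.21 to −0.005. The study used 3 mice, so an alternative fit took the numbers as pairs. The main fit, with its SEs and intervals, did not use pairs. Names come from the labels.

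The 10 integrin genes and the gene lists were chosen with earlier results of these data known. Named genes are the 10, other subunits that passed the filter, and at most 4 called genes of each ligand and adaptor list in each direction, except where stated. Positions, transcript lengths and sequence sharing come from GENCODE M21 (GRCm38). *Itgad*, *Itgb2l*, *Itgb6*, *Lamb3*, *Itgb1bp2*, *Cdh5*, *Ppbp*, *Gp9* and *Cdh1* were not analysed here. A further list of marker genes is not reported here. Alternatives were RLE, library size only, iterative TMM (3 rounds) with the exact test, DESeq2 1.42.0, no filter, filterByExpr, the replicate block, each library left out and the adjusted p alone. Leaving each library out while keeping the genes tested with 6 libraries was added after seeing the data.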

Additional observations from a re-analysis of the deposited data

How the results depend on the processing

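The 10 integrin genes kept their direction and call under RLE, library size only, iterative TMM with the exact test, DESeq2, no filter, filterByExpr and the replicate block, except that *Itgb5*, not called, had a log2 fold change of −0.05 with library size only. The exceptions came from leaving out 1 library. The log2 fold change then ranged from 0.91 to 1.41 for *Itgav*, 0.65 to 1.23 for *Itga1* and 0.71 to 1.17 for *Itga5*, which moved these genes across the fold threshold of 2, and the number of integrin genes called higher ranged from 0 to 3. The number called lower ranged from 0 to 3, since without any IL-11- library *Itga7*, *Itga8* and *Itga11* no longer reached 10 tags in 3 libraries and were not tested. With the genes tested with 6 libraries kept, *Itgav* was at 0.90 without IL-11+ replicate 1, *Itga1* was called without IL-11- replicate 1 (1.02) or 2 (1.05) or IL-11+ replicate 3 (1.23), and *Itga7*, *Itga8* and *Itga11* were called lower in each fit, with adjusted p of at most 0.00727. By the adjusted p alone, 3 integrin genes were higher, and 638 genes in place of 321 over the whole table. With 1 library left out, genes called lower over the whole table ranged from 341 to 579 (595 with all libraries). They were fewest without an IL-11- library, when fewer genes were tested. With the replicate block 337 genes were called higher and 648 lower, and of the named genes the block changed no call but that of *Itga2*. For genes of the other lists, 1765 alternative values stayed on their side of the thresholds, 54 lost and 12 gained a call. Depth limits the genes with under 10 tags in IL-11+ libraries, whose fold changes carry wide counting intervals.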
